A study of Macaca fascicularis with 23 samples.

Results

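The nuclear-encoded subunits of oxidative phosphorylation were followed in liver of Macaca fascicularis, the cynomolgus monkey, after treatment with ciprofibrate, a PPAR-alpha agonist. Members were all probe sets whose array annotation names 1 gene with a symbol beginning NDUFA, NDUFB, NDUFC, NDUFS, NDUFV, UQCR, COX4, COX5, COX6, COX7, COX8 or ATP5, or equal to SDHA, SDHB, SDHC, SDHD or CYC1. These were 69 of 12625 probe sets and stood for 61 genes. The rule used names and no measured value, though it was set with earlier results of these data known. The intensity filter passed 62 of the 69 probe sets, for 57 genes: 20 of complex I, 3 of complex II, 6 of complex III, 12 of complex IV, 13 of complex V, and 3 genes that the naming rule catches although they are assembly or supercomplex factors (NDUFAF1, NDUFAF3 and COX7A2L). NDUFA6, NDUFB6, ATP5MF and ATP5MG were measured below the filter and not tested. A further 3 probe sets name a member together with another gene and were left out. SDHB and the subunits encoded by mitochondrial DNA were not analysed here.

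Oxidative phosphorylation passes electrons from NADH (complex I) and succinate (complex II) through ubiquinone, complex III and cytochrome c to oxygen at complex IV, and the proton gradient built on the way drives ATP synthase, complex V. Most subunits are encoded in the nucleus and imported into mitochondria, while a few core subunits of complexes I, III, IV and V are encoded by mitochondrial DNA. PPAR-alpha, the receptor that fibrates activate, is a nuclear receptor best known in liver for switching on fatty acid oxidation, whose NADH and reduced electron transfer flavoprotein feed this chain.

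The series holds 23 arrays, each of 1 animal: after 4 days, 2 given vehicle and 2 given ciprofibrate at 400 mg/kg/day, and after 15 days, 3 given vehicle and 4 per ciprofibrate dose. The daily doses over 15 days were 3 mg/kg, 30 mg/kg, 150 mg/kg and again 400 mg/kg. All animals were of the same species and the tissue was the right lateral lobe of the liver; their age and sex and the make-up of the vehicle are not stated in the labels. Animals are numbered below by their replicate number within a group, in which order array values are given. The arrays carry probes for human transcripts, so the level of a probe set depends on its match to monkey sequence, and levels of different probe sets were not set against each other. Values are MAS5 intensities, differences are on the log2(intensity + 16) scale with the standard error (SE) of the fit, and precision is limited by how few arrays a group has, above all the 4-day groups.

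The trimmed mean intensity was alike on all arrays as deposited (150.065 to 150.08), and each array's mean correlation with the rest of its group ran from 0.846 to 0.921. Hepatocyte markers fixed as a list were present on every array: 14 of 14 genes were tested and their summed intensity ran from 77123 to 93514 after 15 days at 400 mg/kg/day and from 104797 to 113159 in vehicle at 15 days. Within that list CYP2E1, a bright cytochrome P450 gene, was called lower at 400 mg/kg/day (-3.56 ± 0.49, adjusted p = 0.000161) and CYP3A4 higher (1.31 ± 0.26, adjusted p = 0.00577), and the median over its genes was -0.10. The 9 tested Kupffer cell and macrophage markers summed to 2828 to 3722 against 4204 to 5607, the 9 tested endothelial markers to 1855 to 2342 against 2708 to 3012, and the 9 tested stellate cell markers to 963 to 1163 against 1429 to 2061 in the same groups. The 7 tested T and NK cell markers went the other way, 990 to 1104.5 against 769 to 899, and the other 5 marker lists overlapped between these groups. At lower doses the Kupffer sum was below all vehicle arrays at 150 mg/kg/day (3664 to 4037), as was the sum of 4 red cell markers at 3 mg/kg/day (1494.5 to 1935 against 2024 to 3089). A sum weighs bright genes most, as CD14 (mean intensity 2541) in the Kupffer list. Median differences at 400 mg/kg/day were -0.33 for Kupffer, -0.63 for endothelial, -0.46 for stellate and 0.35 for T and NK markers. Of the Kupffer genes CD14 (-0.68), MARCO, CD5L, C1QB, VSIG4 and CD163 were lower, CSF1R (0.18) and AIF1 (0.31) higher, and CD68 was at -0.004. In these lists only TIMP1, a stellate marker, was called at that dose, lower (adjusted p = 0.0228). The part of these sums in the differences below was not tested. In whole liver, fewer cells of a type and less RNA per cell cannot be told apart. For ACTB, the 5' probe set over the 3' probe set, a measure of RNA integrity, gave a ratio of 0.574 ± 0.033 (SD, n = 3) in vehicle at 15 days. With treatment for 15 days the ACTB ratio was 0.763 ± 0.18 at 3, 0.608 ± 0.082 at 30, 0.640 ± 0.14 at 150 and 0.681 ± 0.13 (SD, n = 4 each) at 400 mg/kg/day. At 4 days it was 0.868 ± 0.17 and 1.12 ± 0.13 (SD, n = 2 each) in vehicle and treated animals. The same ratio for GAPDH was 1.06 ± 0.30 (SD, n = 3) in vehicle at 15 days. With rising dose at 15 days the GAPDH ratio was 1.32 ± 0.19, 1.10 ± 0.31, 1.21 ± 0.16 and 1.11 ± 0.12 (SD, n = 4 each). At 4 days the GAPDH ratio was 0.970 ± 0.032 and 1.07 ± 0.14 (SD, n = 2 each) in vehicle and treated animals.

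Against vehicle at 15 days, 3 of the 57 genes were called higher at 400 mg/kg/day, COX6A1 and COX5A of complex IV and ATP5PF of complex V, and none lower. Without vehicle animal 1, 1 of these 3, COX6A1, was called. Over all 7535 tested probe sets, 2.14% were called in this comparison (adjusted p under 0.05 by limma, adjusted over all tested) and 1.26% were called higher. At 150 mg/kg/day only ATP5PF was called, higher, against 0.677% called and 0.531% called higher of all probe sets. No member was called at 30 or 3 mg/kg/day, where limma called 0.0133% and 0% of all probe sets; 13 and 11 of the 57 genes had an unadjusted p under 0.05 (22.8% and 19.3%), as had 9.82% and 10.05% of all probe sets. The slope over the 5 dose steps again called COX6A1, COX5A and ATP5PF, all rising, against 3.11% called and 1.79% called rising of all. These comparisons share the same 3 vehicle animals.

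By complex, the median difference of 400 mg/kg/day from vehicle at 15 days was 0.39 for complex IV, where 10 of 12 genes were higher. It was 0.14 for complex I (15 of 20 higher), 0.12 for complex V (9 of 13), 0.11 for complex III (3 of 6) and -0.13 for complex II (1 of 3). The median over all 5462 genes represented on the array was -0.03. For scale, the median deviation of a complex varied between animals of 1 group with an SD of 0.091 for complex I, 0.25 for II, 0.131 for III, 0.122 for IV and 0.165 for V. Scaling each array to the same median gave 0.25 for complex I, -0.02 for II, 0.21 for III, 0.49 for IV and 0.22 for V, with the median over all probe sets at 0.07 in place of -0.03. Without 1 animal the medians ran from 0.08 to 0.18 for complex I, -0.20 to -0.07 for II, 0.07 to 0.18 for III, 0.32 to 0.45 for IV and 0.15 to 0.25 for V. Those of I, II, III and V moved by over 1.5 times: I without vehicle animal 2, II without vehicle animal 3 or 400 mg/kg/day animal 2, 3 or 4, III without animal 1 or 4 at that dose, and V without vehicle animal 1 or animal 1 or 3 at that dose. Each of the 7 fits without 1 animal put complex V above the 0.12 of the main fit. The order of complexes I, III and V is thus not firm. The lower doses did not order the complexes in this way: complex IV had a median of 0.05 at 3, 0.13 at 30 and 0.14 at 150 mg/kg/day, and the highest medians were those of complex III at 3 and 30 mg/kg/day (0.18 and 0.38) and of complex II at 150 mg/kg/day (0.39).

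**Figure D1:**
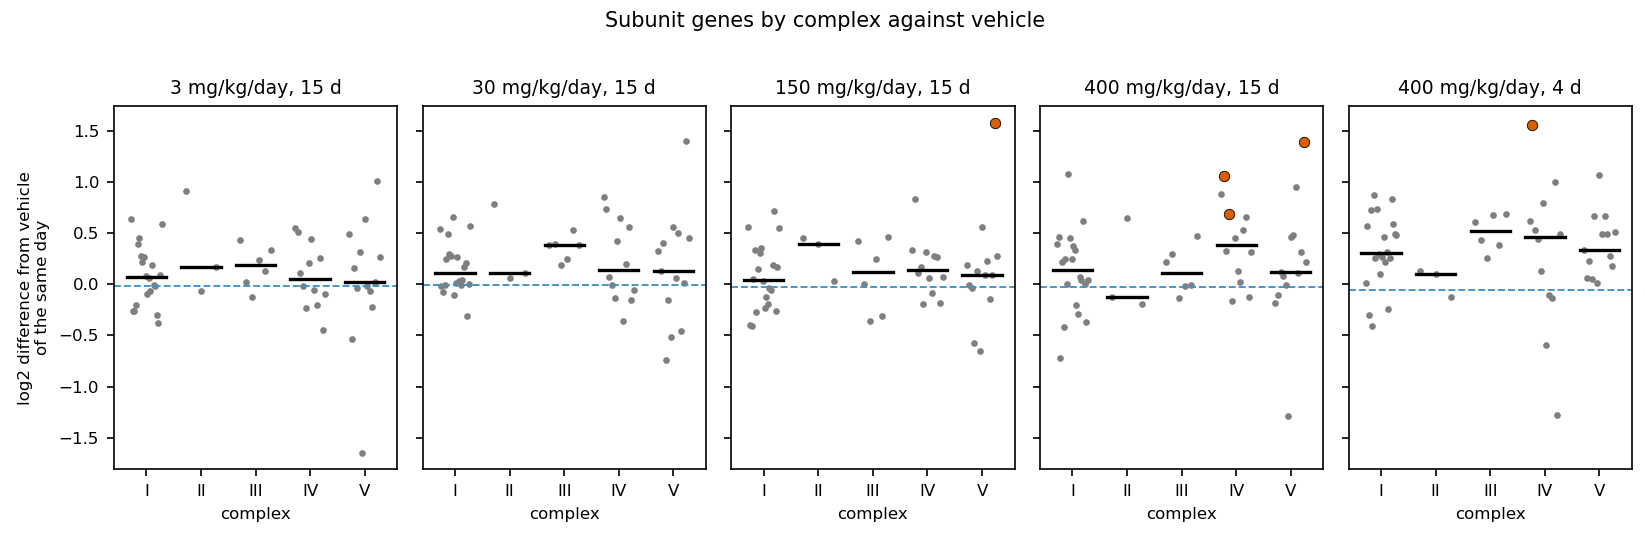
Log2 difference from vehicle of the same day (y axis) for each tested subunit gene by complex (x axis), 1 panel per dose and day; black bars are medians, the dashed line the median of all genes, and larger orange points genes called at an adjusted p under 0.05. Complex IV has its highest 15-day median, 0.39, at 400 mg/kg/day, and at 4 days all 13 genes of complex V and all 6 of complex III lie above 0.

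Of the 57 genes, 24 had their highest group mean at 15 days at 400 mg/kg/day (42.1%; 22.0% of all genes represented) and 19 their lowest in vehicle (33.3%; 20.5% of all genes). In 18 of the 57, all 400 mg/kg/day arrays lay above all vehicle arrays, which held for 6.72% of all probe sets tested. The corresponding numbers were 9 genes at 150 (5.16% of all), 12 at 30 (4.03%) and 5 at 3 mg/kg/day (4.05%), again against the same 3 vehicle arrays.

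Complex I takes electrons from NADH and hands them to ubiquinone. None of its 20 tested genes was called by limma against vehicle at any dose, and 3, 4, 2 and 1 of them had an unadjusted p under 0.05 at 3, 30, 150 and 400 mg/kg/day. Over all probe sets the share with such a p was 10.05%, 9.82%, 11.3% and 12.5% at these doses. NDUFV2, a core subunit that carries an iron-sulfur cluster, was the 1 of them called as differing among the 5 groups at 15 days by the moderated F test, which asks for a difference in any group (adjusted p = 0.0450; 5 of 57 members and 3.3% of all probe sets were called by it). Its intensities in vehicle were 570, 527.5 and 493. They were 932, 693, 587 and 1101 at 3 mg/kg/day, 796, 884, 682.5 and 813 at 30, and 712, 891, 779.5 and 763 at 150 mg/kg/day. At 400 mg/kg/day they were 623, 496, 557 and 516. All 12 arrays of the lower doses thus lay above all vehicle arrays, while those at 400 mg/kg/day overlapped them. The differences from vehicle were 0.59 ± 0.17, 0.56 ± 0.17, 0.55 ± 0.17 and 0.04 ± 0.17 (SE) with rising dose, none of them called (adjusted p from 0.176 to 0.962). The F test lost its call in 15 of the 19 fits that left out 1 animal (adjusted p up to 0.101).

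NDUFA2, an accessory subunit, differed between 400 and 3 mg/kg/day at 15 days, at 2041, 2377, 3561 and 2822 against 1608, 1583, 1613 and 1562. The groups did not overlap and the difference was 0.73 ± 0.19 (SE; adjusted p = 0.0280). Its vehicle arrays, at 1431, 1859 and 2635, spanned much of that range, and against them 400 mg/kg/day differed by 0.46 ± 0.20 (adjusted p = 0.332). Leaving out any of the 4 animals at 3 mg/kg/day, or animal 3 or 4 at 400 mg/kg/day, lost the call (adjusted p from 0.0530 to 0.121). The other members of complex I at the ends of its range at 400 mg/kg/day were dim and scattered. NDUFB3, a membrane arm subunit, had 19.1, 29 and 47.5 in vehicle and 53.8, 109, 103 and 71.4 at 400 mg/kg/day (1.07 ± 0.58, adjusted p = 0.473). NDUFS6, of the NADH module, differed by 0.62 ± 0.56 (adjusted p = 0.749), NDUFA9, of the ubiquinone module, by -0.41 ± 0.40 (adjusted p = 0.769) and NDUFA5, of the same module, by -0.72 ± 0.54 (adjusted p = 0.679).

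Complex II is succinate dehydrogenase, shared between the citric acid cycle and the respiratory chain and encoded wholly in the nucleus. SDHA, its flavoprotein that oxidises succinate, had a profile over dose with its top at the lowest dose. Intensities were 1249, 1227.5 and 1073 in vehicle, 2548, 2125, 1608 and 2837.5 at 3 mg/kg/day, and 2148, 2376, 1911 and 1782 at 30 mg/kg/day. They were 1590, 1817, 1622 and 1470.5 at 150 and 1154.5, 977, 1222 and 981 at 400 mg/kg/day. At 15 days, all arrays at 3, 30 and 150 mg/kg/day lay above all vehicle and all 400 mg/kg/day arrays, and those last groups overlapped.

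The moderated F test over the 5 groups called SDHA (F = 17.4, adjusted p = 0.000378), and 400 differed from 3 mg/kg/day by -1.04 ± 0.15 (adjusted p = 0.000196). Both calls held in all alternative fits, those that left out 1 animal included, and over them the second difference ran from -1.19 to -0.92. Against vehicle the differences were 0.91 ± 0.16 at 3 (adjusted p = 0.0506), 0.78 ± 0.16 at 30 (0.165), 0.45 ± 0.16 at 150 (0.258) and -0.13 ± 0.16 at 400 mg/kg/day (0.845; all adjusted p-values). The first of these was called in 3 of 18 alternative fits, among them the one without animal 3 at 3 mg/kg/day, its lowest array. At 4 days SDHA stood at 1877 and 1609 in vehicle and 1887.5 and 1924 at 400 mg/kg/day (0.13 ± 0.22, adjusted p = 0.999). These 4-day arrays, vehicle included, lay within the range of the 15-day arrays at 3, 30 and 150 mg/kg/day. The 3 mg/kg/day group, where SDHA was highest, also had the highest ACTB ratio at 15 days, 0.561 to 0.979 against 0.540 to 0.606 in vehicle. Its mean GAPDH ratio was also the highest, 1.32 against 1.06 in vehicle. The part of RNA quality in the SDHA profile was not tested.

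SDHC and SDHD anchor complex II in the inner membrane. SDHC had 134, 270.5 and 197 in vehicle and 351.4, 240, 389 and 289 at 400 mg/kg/day, a difference of 0.65 ± 0.28 (adjusted p = 0.306). Against 3 mg/kg/day, with 146, 149.5, 232 and 223, it was 0.72 ± 0.26 (adjusted p = 0.125), with no overlap, opposite in sign to SDHA. SDHD overlapped between these groups (-0.36 ± 0.24, adjusted p = 0.466). Whether SDHA and SDHC differ in their response was not tested.

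**Figure D2:**
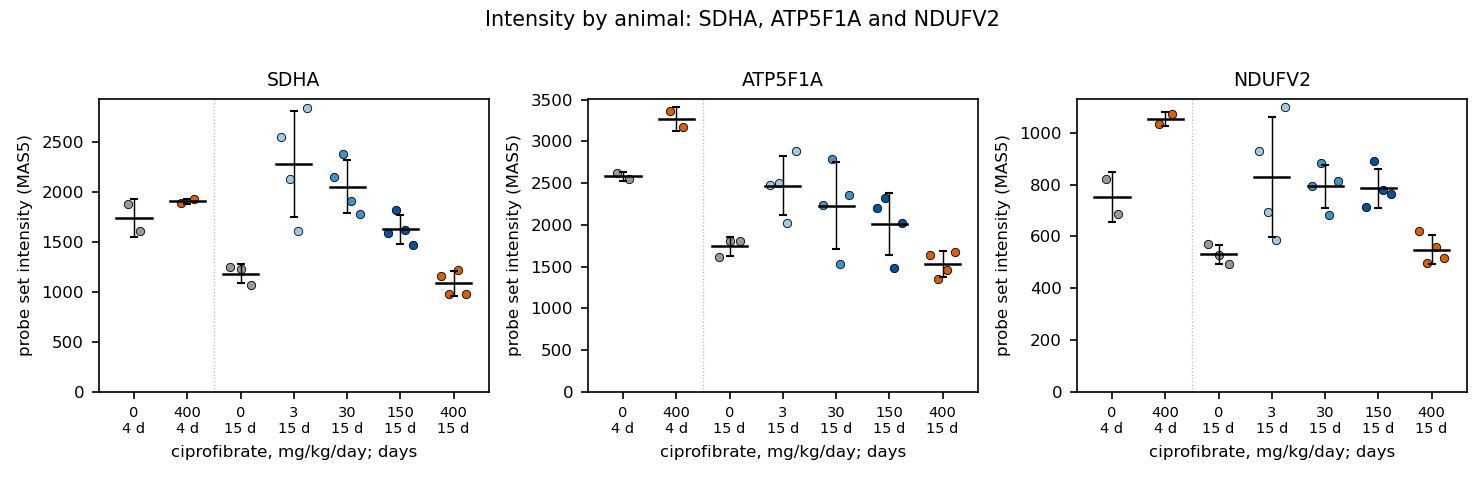
Probe set intensity (y axis, linear, from 0) of SDHA, ATP5F1A and NDUFV2 in each animal by dose and day (x axis); points are animals, horizontal bars group means and whiskers SD. In SDHA the arrays at 3, 30 and 150 mg/kg/day for 15 days, 1470.5 to 2837.5, lie above those of vehicle and 400 mg/kg/day, 977 to 1249.

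Complex III carries electrons from ubiquinol to cytochrome c, and none of its 6 tested genes was called by limma in any comparison. Of all probe sets, at most 4.18% were called in a comparison. At 400 mg/kg/day, 1 of the 6 had an unadjusted p under 0.05 after 15 days (12.5% of all probe sets). After 4 days 3 of the 6 had such a p (7.63% of all probe sets). UQCRQ, a small accessory subunit, came nearest, with 1932, 1590 and 1794 in vehicle and 3306, 1981, 2470 and 2243 at 400 mg/kg/day. Those arrays did not overlap, and the difference was 0.47 ± 0.16 (SE; adjusted p = 0.136). Its arrays at 3, 30 and 150 mg/kg/day, 1955.5 to 2695, all lay above vehicle too, with differences of 0.33 ± 0.16, 0.38 ± 0.16 and 0.46 ± 0.16. CYC1, the cytochrome c1 that passes the electrons on, differed by 0.22 ± 0.21 at 400 mg/kg/day and UQCR11 by 0.29 ± 0.19. UQCRB had -0.14 ± 0.38 and the core protein UQCRC1 -0.02 ± 0.17, with adjusted p-values from 0.606 to 0.985 over these 4.

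Complex IV, cytochrome c oxidase, reduces oxygen. COX6A1, the isoform of subunit 6A found in liver, was called higher at 400 mg/kg/day and at no lower dose. Vehicle arrays at 15 days had 9131, 9090 and 8971, and the 12 arrays at 3, 30 and 150 mg/kg/day had 7993 to 11138. At 400 mg/kg/day they had 13881, 14398, 16219 and 14071, above every other array at 15 days. The difference from vehicle was 0.69 ± 0.13 (SE; 1.61-fold; adjusted p = 0.00490), and that from 3 mg/kg/day 0.70 ± 0.12 (adjusted p = 0.00143). A fit to the vehicle and 400 mg/kg/day groups of 15 days alone gave an adjusted p of 0.0870 for the first. At 150 mg/kg/day the difference from vehicle was 0.17 ± 0.13 (adjusted p = 0.695). After 4 days the arrays were 7639 and 8862 in vehicle and 11268 and 11045 at 400 mg/kg/day (0.44 ± 0.18, adjusted p = 0.491).

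COX5A, another nuclear-encoded subunit of complex IV, was the 1 member called at both times. After 15 days it had 390, 668 and 641 in vehicle and 1069, 1280, 1409 and 946 at 400 mg/kg/day, with no overlap. It rose by 1.05 ± 0.21 (2.08-fold; adjusted p = 0.00577). Without vehicle animal 1, its lowest array, the rise was 0.81 and no longer called (adjusted p = 0.0741). Group means between those ends were 800 ± 141 at 3, 942 ± 198 at 30 and 1004 ± 173 (SD, n = 4 each) at 150 mg/kg/day, and the slope of 0.24 ± 0.05 per dose step was called (adjusted p = 0.00278) in all alternative fits too. The F test over the 5 groups also called COX5A (adjusted p = 0.0310), a call lost without vehicle animal 1 or without animal 1, 2 or 3 at 400 mg/kg/day (adjusted p up to 0.131). After 4 days COX5A had 559 and 738 in vehicle and 1841 and 1999 at 400 mg/kg/day, a rise of 1.56 ± 0.28 (adjusted p = 0.0151), the 1 member called there, against 0.292% called and 0.252% called higher of all probe sets. That call was lost without any one of the 4 animals (adjusted p from 0.0506 to 0.165). The rises at 15 and 4 days were not shown to differ (-0.50 ± 0.35, adjusted p = 0.999).

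COX4I1, the widely expressed isoform of the regulatory subunit 4, had 258, 478 and 440 in vehicle and 562, 783, 1014 and 573 at 400 mg/kg/day. The arrays did not overlap, and the difference of 0.88 ± 0.24 just missed the threshold (adjusted p = 0.0521); 4 alternative fits called it. Of the isoform pairs in which 1 form predominates in heart and muscle, COX6A2 differed by -0.16 ± 0.21 and COX7A1 by 0.02 ± 0.21 where their liver forms COX6A1 and COX7A2 differed by 0.69 ± 0.13 and 0.53 ± 0.27. The difference between isoforms was not tested, and COX7A2 was not called (adjusted p = 0.445). COX8A had 0.31 ± 0.15 and COX6B1 0.45 ± 0.19, also not called (adjusted p = 0.394 and 0.292). COX7C had the lowest difference of the 4 complex IV genes below 0 after 4 days: 283 and 296 in vehicle and 99.1 and 122 at 400 mg/kg/day, without overlap (-1.28 ± 0.35, adjusted p = 0.153). At 15 days its groups overlapped (-0.12 ± 0.27, adjusted p = 0.921).

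**Figure D3:**
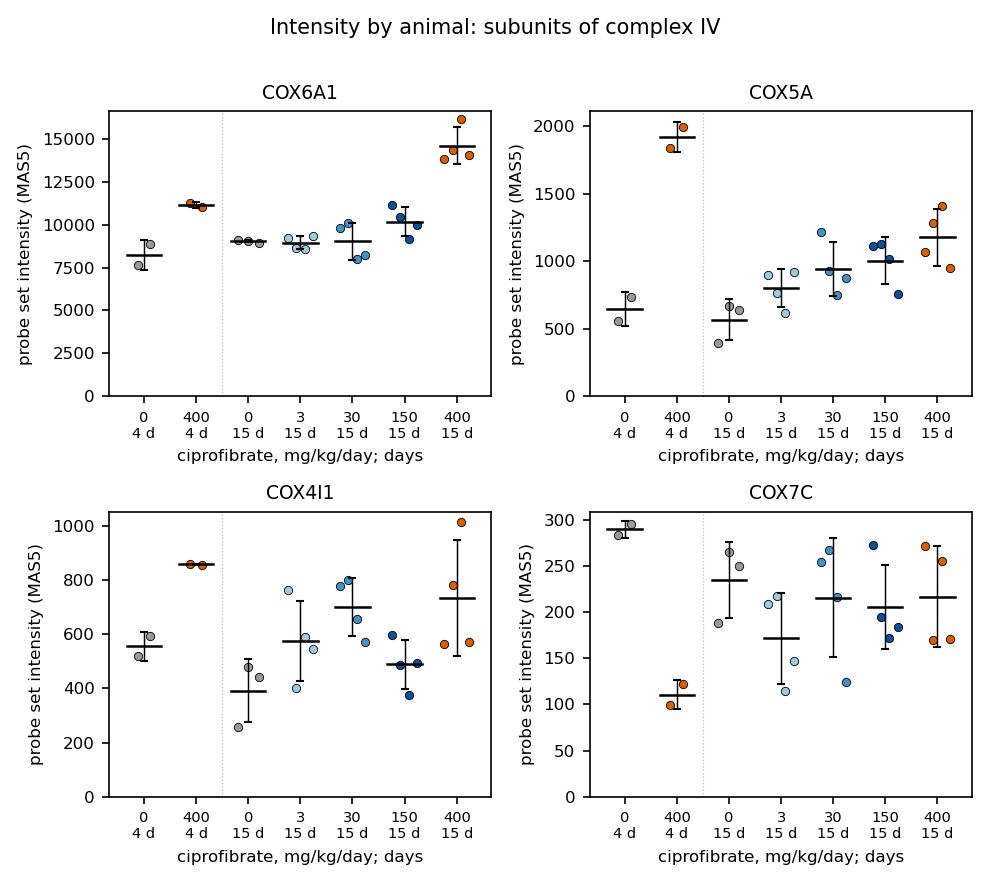
Probe set intensity (y axis, linear, from 0) of 4 complex IV subunits in each animal by dose and day (x axis); points are animals, horizontal bars group means and whiskers SD. COX6A1 after 15 days at 400 mg/kg/day, 13881 to 16219, is above every other array, and COX7C after 4 days is lower in both treated animals.

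Complex V, ATP synthase, turns the proton gradient into ATP. ATP5PF, the coupling factor of the stalk that holds the catalytic head still, was called higher at 400 (1.38 ± 0.36, adjusted p = 0.0453) and 150 mg/kg/day (1.58 ± 0.36, adjusted p = 0.0417). These calls rest on dim vehicle arrays at 15.9, 14.8 and 21, below the filter's intensity of 39.7, and with a pseudocount of 64 in place of 16 the differences were 0.74 and 0.88, neither called. At 3, 30, 150 and 400 mg/kg/day the arrays had 35.8 to 73.1, 51.5 to 88.6, 40.2 to 161.5 and 40 to 107.5, all above vehicle, but the 2 vehicle arrays after 4 days, at 53.2 and 62.6, lay within that range. Both calls were lost when any one of the 3 vehicle animals was left out, and each in 6 of 7 such fits (adjusted p at 400 mg/kg/day up to 0.155 and at 150 up to 0.151). The slope of 0.33 ± 0.08 per dose step (adjusted p = 0.0187) was lost in 4 of 19, without vehicle animal 1 or 2 or without animal 1 or 2 at 400 mg/kg/day (adjusted p from 0.0563 to 0.0664).

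ATP5F1A, the alpha subunit of the catalytic head, was, like SDHA, highest at 3 mg/kg/day among the 15-day group means. Arrays at 15 days were 1612, 1808 and 1803 in vehicle and 2472, 2497, 2018 and 2880.5 at 3 mg/kg/day. At 400 mg/kg/day they were 1638.5, 1346, 1464 and 1676, below all those at 3 mg/kg/day and overlapping vehicle. The difference of 400 from 3 mg/kg/day was -0.68 ± 0.17 (SE; adjusted p = 0.0187). Without animal 4 at 3 mg/kg/day, or animal 2 or 3 at 400 mg/kg/day, this was not called (adjusted p = 0.0700, 0.0646 and 0.0530). The F test over the 5 groups did not call it (adjusted p = 0.0947). In SDHA, ATP5F1A and NDUFV2 alike, animal 4 was the highest and animal 3 the lowest of the 4 at 3 mg/kg/day.

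ATP5ME, the membrane subunit e, was called between 400 and 3 mg/kg/day, at 1853.5, 1630, 2126 and 1684 against 1242, 1513, 1267 and 1136 with no overlap (0.49 ± 0.13, adjusted p = 0.0323). The call was lost without animal 1, 3 or 4 at 3 mg/kg/day or animal 1 or 3 at 400 mg/kg/day (adjusted p from 0.0654 to 0.127). Against vehicle it had 0.48 ± 0.14 (adjusted p = 0.0935), and its second, dimmer probe set 1.69 ± 0.59 (adjusted p = 0.175). ATP5F1D, the delta subunit of the rotating stalk, was called by the F test (adjusted p = 0.0460), a call lost in 15 of 19 fits without 1 animal (adjusted p up to 0.102). It had 850, 659 and 846 in vehicle, 1060, 673, 575 and 810.0 at 3, 396 to 502 at 30, 323 to 636.5 at 150 and 810 to 859.5 at 400 mg/kg/day. The arrays at 30 and 150 mg/kg/day all lay below vehicle, and 1 array at 3 mg/kg/day did too. Its second probe set did not show this: it differed from vehicle by -0.10 ± 0.23 at 30 and 0.62 ± 0.23 at 400 mg/kg/day, where the first had -0.74 ± 0.23 and 0.08 ± 0.23. ATP5MJ, a small membrane subunit, was at 0.95 ± 0.32 and ATP5MC2, of the c ring, at -1.29 ± 0.53 at 400 mg/kg/day, neither called (adjusted p = 0.153 and 0.288).

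The comparison of 400 with 3 mg/kg/day at 15 days uses no vehicle animal but shares the 400 mg/kg/day animals with the comparison above. It called 5 of the 57 genes, against 4.18% of all probe sets. NDUFA2, COX6A1 and ATP5ME were higher (1.92% of all) and SDHA and ATP5F1A lower (2.26% of all). Without animal 4 at 3 mg/kg/day or animal 3 at 400 mg/kg/day, 2 were called, COX6A1 and SDHA. In 9 genes all 400 mg/kg/day arrays lay above all those at 3 mg/kg/day (5.75% of all probe sets) and in 5 all lay below (5.45%). The median was 0.33 for complex IV with 11 of 12 genes higher, 0.30 for complex V (8 of 13), 0.07 for complex I (11 of 20), -0.07 for complex III (2 of 6) and -0.36 for complex II (1 of 3), beside 0.01 for all genes. COX6C, at -0.32 ± 0.38, was the 1 gene of complex IV on the lower side.

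**Figure D4:**
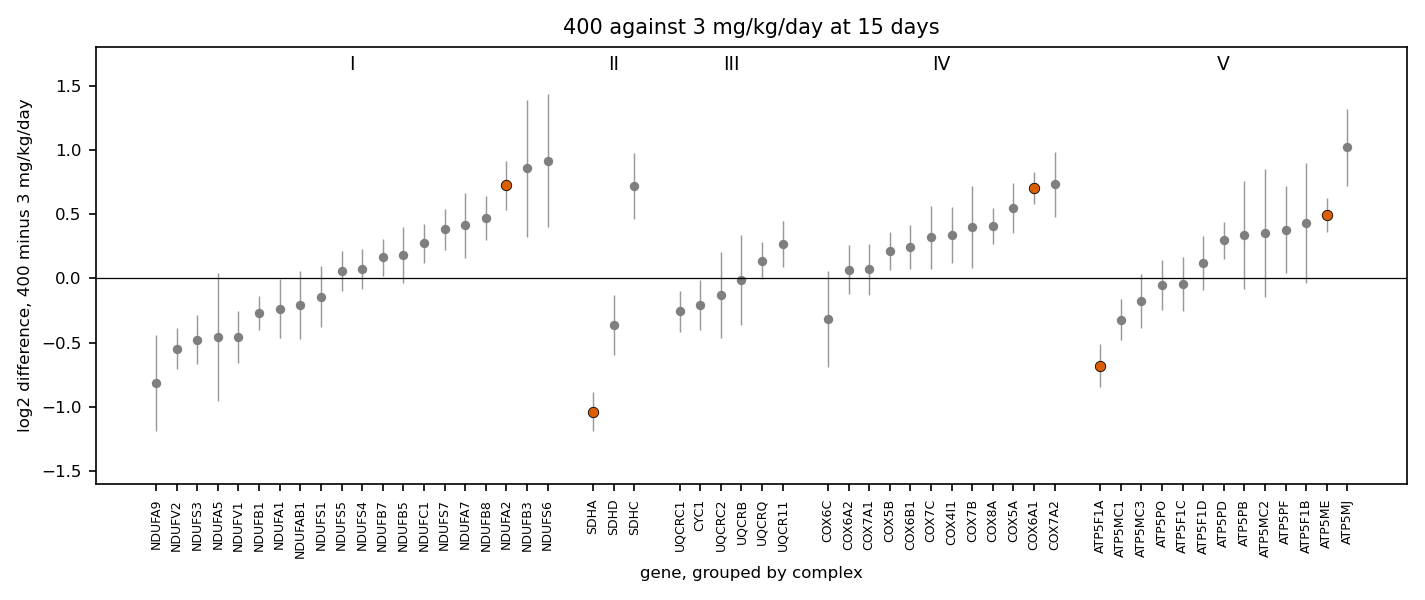
Log2 difference of 400 from 3 mg/kg/day at 15 days (y axis) for each tested subunit gene (x axis), grouped by complex and ordered within it; whiskers are the SE of the fit and larger orange points are called. SDHA (-1.04) and ATP5F1A (-0.68) are called lower and NDUFA2 (0.73), COX6A1 (0.70) and ATP5ME (0.49) higher, and 11 of 12 genes of complex IV lie above 0.

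After 4 days at 400 mg/kg/day, 48 of the 57 genes were higher than in the vehicle animals of that day, with a median of 0.34 beside -0.05 for all genes. The medians were 0.52 for complex III (6 of 6 higher), 0.46 for complex IV (8 of 12), 0.34 for complex V (13 of 13), 0.30 for complex I (17 of 20) and 0.10 for complex II (2 of 3). Of the 57, 19 had an unadjusted p under 0.05 (33.3%; 7.63% of all probe sets), though only COX5A was called. All treated arrays lay above all vehicle arrays in 33 genes, against 18.4% of all probe sets. UQCRQ, for example, had 2014 and 2277 in vehicle and 3716.5 and 3222 in treated animals (0.69 ± 0.20, adjusted p = 0.208), and UQCRC1 had 946 and 1088 against 1874 and 1416 (0.67 ± 0.23, adjusted p = 0.322). The treated animals also had the higher ACTB ratio, 1.02 and 1.21 against 0.748 and 0.988. For GAPDH the ratio overlapped, 1.17 and 0.974 in treated animals against 0.947 and 0.993 in vehicle. Their marker sums were lower without overlap for hepatocytes (74237 to 74808 against 89230 to 89846), Kupffer cells (3168 to 3645 against 4262.5 to 5544), stellate cells (1461.5 to 1751 against 2256 to 2586), T and NK cells (925 to 926 against 1000.0 to 1044) and red cells (1774 to 3455 against 4919 to 5291). The median differences of these lists were -0.15, -0.18, -0.29, -0.34 and -0.60 in that order. The striated muscle sum was higher (2623 to 3360.5 against 1950.3 to 2308), and the other 4 lists overlapped. Most of the muscle sum is 1 bright gene, TNNT1 (mean intensity 1586, 0.58 ± 0.31). MYL2 was also higher (0.78 ± 0.66), while MYH2, CKM, TNNT3 and TNNI1 were lower and the median of the muscle list was -0.30. The part of these values in the differences at 4 days was not tested.

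No member was called for a difference between the 15-day and the 4-day effect of 400 mg/kg/day, where limma called 0% of all probe sets; 5 of the 57 genes (8.77%) and 3.37% of all probe sets had an unadjusted p under 0.05. Its median was -0.21 over the members, with 38 of 57 negative, beside 0.02 for all genes. Between the vehicle groups, 2 members were called, both higher at 15 than at 4 days (0.863% of all probe sets called, 0.637% higher). NDUFAF3, a complex I assembly factor, had 430, 309 and 349 at 15 days and 188 and 54.8 at 4 days (1.64 ± 0.39, adjusted p = 0.0398). ATP5F1D had 316 and 372.5 at 4 days against the values above (1.15 ± 0.27, adjusted p = 0.0391), while its second probe set had 0.29 ± 0.28. Without 4-day vehicle animal 2, NDUFAF3 differed by 0.88 (adjusted p = 0.604); leaving out 1 animal lost the call in 4 of 5 fits for NDUFAF3 and 5 of 5 for ATP5F1D (adjusted p up to 0.347). The days are different animals, so their difference cannot be told apart from any other difference between those groups. NDUFAF1 and COX7A2L, which helps to join complexes III and IV, were not called in any comparison.

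The level of a complex was also set out per animal, as the median over its genes of the deviation from the mean of each gene's 7 group means. Complex IV was at 0.07 to 0.47 in the 4 animals at 400 mg/kg/day and at -0.10 to 0.00 in the 3 vehicle animals at 15 days. Complex III was at -0.29 to -0.16 in those vehicle animals and at -0.18 to 0.33 in the 16 treated with any dose for 15 days. Of these 16, 15 stood above those same 3 vehicle animals, some barely. Animals 1 and 2 at 400 and animal 3 at 150 mg/kg/day had -0.157, -0.154 and -0.147, beside -0.162 in the highest vehicle animal. The SD between animals of a group was 0.131 for this complex. Complex II, a median over 3 genes, had the widest spread, -0.56 to 0.12 at 400 mg/kg/day. Complex I was at -0.02 to 0.14 at that dose and at -0.11 to -0.05 in those vehicle animals, without overlap. Complex V was at -0.08 to 0.31 and -0.25 to -0.08, with overlap. From vehicle to 400 mg/kg/day the group mean went from -0.04 to 0.21 for complex IV and -0.19 to 0.11 for V. It went from -0.09 to 0.08 for I, -0.24 to -0.08 for III and -0.19 to -0.18 for II. By this level complex IV thus did not stand out from complex V. Over all members the level was -0.13 ± 0.016 (SD, n = 3) in vehicle, -0.02 ± 0.079 at 3, 0.08 ± 0.11 at 30, 0.00 ± 0.10 at 150 and 0.09 ± 0.091 (SD, n = 4 each) at 400 mg/kg/day. It was -0.15 ± 0.076 and 0.22 ± 0.061 (SD, n = 2 each) in vehicle and treated animals at 4 days.

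**Figure D5:**
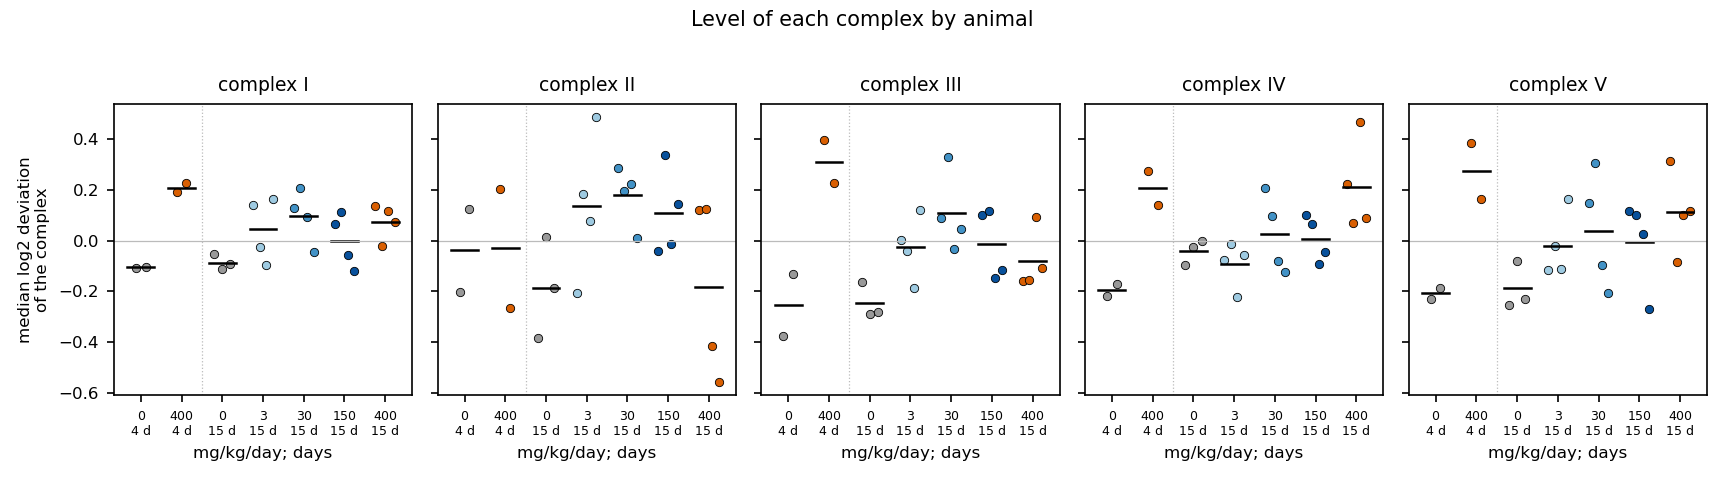
Level of each complex in each animal (y axis) by dose and day (x axis). The level is the median log2 deviation, over the complex's tested genes, from the mean of each gene's 7 group means. Points are animals and bars group means. After 15 days at 400 mg/kg/day complex IV lies at 0.07 to 0.47, above all 3 vehicle animals of that day, as does complex I at -0.02 to 0.14. Complex V, at -0.08 to 0.31, overlaps vehicle, and complex II spreads from -0.56 to 0.12.

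Genes that work beside the complexes were counted from lists of textbook membership, drawn up with earlier results of these data known. Of 10 tested electron carriers and assembly factors, ETFA, a subunit of the electron transfer flavoprotein that takes electrons from fatty acid oxidation to ubiquinone, rose at 400 mg/kg/day by 1.11 ± 0.18 (adjusted p = 0.000953). ETFDH, the ubiquinone reductase that receives them, rose at 150 mg/kg/day by 1.04 ± 0.24 (adjusted p = 0.0394) and had 0.82 ± 0.24 at 400 (adjusted p = 0.0763). CYCS, cytochrome c itself, had -0.07 ± 0.20 at 400 mg/kg/day. Of 16 tested genes of mitochondrial fatty acid oxidation, a list that also holds ETFA and ETFDH, 7 were called higher at 400 mg/kg/day and 12 in the slope. Of all probe sets 1.26% were called higher at that dose and 1.79% rising in the slope. The list's median difference was 0.88 at 400 mg/kg/day beside 0.22 for the oxidative phosphorylation members.

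Against vehicle, none of 9 tested ADP, phosphate and pore carriers, 11 genes of the citric acid cycle, 14 of mitochondrial import, 11 of the mitochondrial ribosome or 8 of the regulators of respiratory gene transcription was called at any dose by limma. Of all probe sets, at most 2.14% were called against vehicle at any dose. The medians of these lists at 400 mg/kg/day were 0.15, -0.15, 0.21, 0.21 and -0.07. At an unadjusted p under 0.05 were 0, 0, 2, 1 and 0 of their genes, and 12.5% of all probe sets. Between 400 and 3 mg/kg/day, IDH3B, a subunit of the isocitrate dehydrogenase of the citric acid cycle, was lower (-0.81 ± 0.23, adjusted p = 0.0465). MRPS12, of the small mitochondrial ribosomal subunit, was higher (0.70 ± 0.16, adjusted p = 0.0102), as was YY1, a transcription factor (0.84 ± 0.19, adjusted p = 0.0126). No other gene of these 5 lists was called there, where 4.18% of all probe sets were.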

How the data were processed

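Total RNA of the right lateral liver lobe, 1 array per animal, was labelled and hybridised to a human gene array, per the labels' protocols. The authors deposited probe set intensities on a linear scale, and the submitters' processing notes name MAS5 as the tool; its version and settings are not given in the sources used here. Probe sets were named from the array annotation: 10961 name 1 gene, 545 several and 1119 none.

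From these, log2(intensity + 16) was fitted over all 7 groups with limma 3.58.1 in R 4.3.3 (lmFit, eBayes with an intensity trend, 2-sided), with no batch term. The 7535 of 12558 probe sets, 67 control probe sets aside, whose mean lay at or above the 40th percentile (5.80 on that scale) were tested, and all p-values were adjusted over them by Benjamini-Hochberg. All adjusted p-values in the text are limma's; they rest on 16 residual degrees of freedom and reflect the spread between animals. A gene stands for its tested probe set of highest mean naming it alone. The fit was tested on simulated data.

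Members, gene lists and tests were chosen with earlier results of these data known. Named were all called members, complex II, the 3 largest and 2 smallest differences at 400 mg/kg/day in each other complex, isoform pairs, assembly factors, discordant probe sets and called genes of other lists. COX6C and CYCS were named after their values were seen. Alternatives were pseudocounts, filters, scalings, eBayes settings, array weights, a replicate block, separate fits and each animal left out. Promoter sequences were not used here.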

Additional observations from a re-analysis of the deposited data

Results flagged for a closer look

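Over the named members' probe sets and the levels of the 5 complexes, 156 groups of 4 arrays were looked at, and in 3 (1.92%) 1 animal stood apart by Dixon's test of the gap to its nearest neighbour; chance gives about 1 in 20. ATP5F1D was at 323.4 in animal 4 at 150 mg/kg/day, below 586.2 to 636.5 in the other 3. ATP5MC2 was at 88.4 in animal 1 at 400 mg/kg/day and 15 days, where the other 3 had 17.9 to 21.4, below the filter's intensity of 39.7. COX8A was at 5832.8 in animal 3 at 30 mg/kg/day, below 6435.5 to 6552.8.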

How the results depend on the processing

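Of 20 called results on members, 0 changed sign in any alternative, and SDHA (F test and 400 against 3 mg/kg/day), COX6A1 (slope, F test and 400 against 3 mg/kg/day) and the slope of COX5A stayed called in all of them. At 400 mg/kg/day and 15 days, 1 member was called in a separate fit of the groups compared, COX5A, and 1 to 3 when 1 animal was left out. At 150 mg/kg/day the count was 0 under a pseudocount of 64, no filter, a filter at the 60th percentile, the replicate block and a separate fit, and 0 to 1 without 1 animal. At 3 mg/kg/day it was 1, SDHA, under the filter at the 60th percentile and under array weights, and 0 to 1 without 1 animal. At 4 days it was 0 without an intensity trend and in a separate fit, 4 under array weights (ATP5MC3, COX5A, COX7C and UQCRQ) and 0 whichever animal was left out.

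The slope called 2 to 5 members without 1 animal. The F test called 3 without the filter, 2 after median scaling, 2 without the trend, 3 with the replicate block and 2 to 5 without 1 animal. For 400 against 3 mg/kg/day the count was 2 without the trend and 2 to 7 without 1 animal. Between vehicle groups it was 1 under a pseudocount of 64, 1 after median scaling, 1 with the replicate block, 0 without the filter, 0 without the trend, 0 in a separate fit and 0 to 1 without 1 animal. The cause of these changes was not tested. The median of complex I at 400 mg/kg/day was 0.25 after median scaling, and the medians of all 5 complexes kept their sign in all alternatives. Residuals of same-numbered animals in different groups correlated between -0.0873 and 0.0719, and those of other-numbered animals between -0.103 and 0.123. The labels do not tie equal numbers across groups, and the main fit used no pairing. Dim probe sets (ATP5PF in vehicle, ATP5MC2, NDUFB3) have the least certain sizes.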

Other observations

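The subunits were also divided, after their values were seen and so without a test, into 12 taken as core and the other 42. The 12 were NDUFS1, NDUFS3, NDUFS7, NDUFV1, NDUFV2, SDHA, CYC1, UQCRC1, UQCRC2, ATP5F1A, ATP5F1B and ATP5F1C. Some subunits could be placed otherwise: SDHC and SDHD, the membrane anchors of complex II, were counted with the 42. So were ATP5F1D, of the rotating stalk, and ATP5MC2, of the c ring. At 400 mg/kg/day and 15 days the median difference from vehicle was -0.06 for the 12, of which 4 were higher, and 0.31 for the 42, of which 34 were higher. Of all genes represented, 47.2% were higher. Between 400 and 3 mg/kg/day, 10 of the 12 were lower with a median of -0.23, and 31 of the 42 were higher with a median of 0.26. There 50.9% of all genes represented were higher. After 4 days both classes had a median of 0.36, with 12 of 12 and 34 of 42 higher, beside 44.7% of all genes represented. The 15-day effect of 400 mg/kg/day was below the 4-day effect in 12 of 12 and in 25 of 42, and in 2636 of all 5462 genes represented. Brightness and transcript length were not compared between the classes.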
